A study of Pimephales promelas with 12 samples.

Results

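Liver was compared with telencephalon, the front part of the forebrain, in adult male fathead minnow (Pimephales promelas), a small fish used to test chemicals in water. The comparison uses the 3 libraries titled liver and the 3 titled telencephalon, 6 of the 12 libraries of the study, and every contig on which reads were counted. A contig is an assembled or single sequence that stands for a transcript, and a gene can have several. The fish came from a laboratory culture and no treatment, strain or age beyond adult is given for them. The methods describe 3 individual males whose liver, telencephalon, gut and hypothalamus were taken, and total RNA with an integrity number above 8 was sequenced after enrichment for polyadenylated RNA.

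The liver takes up and converts nutrients, makes bile and the proteins of blood plasma, and breaks down foreign chemicals, and most of its mass is a single cell type, the hepatocyte. The telencephalon receives the sense of smell and takes part in learning, social behavior and the control of reproduction. It holds many kinds of neurons, and glia that in fish include radial glia, the cells that make brain aromatase and convert androgens to estrogens. Each library is RNA of a whole tissue piece, so fewer cells of a type and less RNA per cell cannot be told apart.

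The liver libraries held 15752594, 16721570 and 14546298 counts, and the telencephalon libraries 19848349, 21463583 and 17729942. Contigs carry assembly names, and 0 of the 11230 sequence identifiers among them matched the gene table of the species. Lists of liver, neuron, glia and blood markers could therefore not be looked up, and the tissue labels could not be checked against their defining genes. What could be checked is that the libraries of a tissue were alike. Over the 21656 contigs that reached 50 counts in 3 or more of the 6 libraries, Pearson's r of log2(CPM + 1) was 0.938 to 0.954 between liver libraries and 0.948 to 0.974 between telencephalon libraries. Between a liver and a telencephalon library it was 0.295 to 0.348. A contig could reach that limit in the 3 libraries of a single tissue, which favors contigs that differ between the tissues. The low values between tissues follow in part from this choice and are no separate check of the labels. CPM, the usual unit of counts scaled by library size, were computed here after TMM scaling, the edgeR scaling that allows for a few very abundant contigs. These correlations are across contigs, which are not independent, and each library enters several of them. Replicates varied by 46.0% in liver and 35.6% in telencephalon, as the biological coefficient of variation of contigs averaging 50 counts or more. Gut and hypothalamus libraries were used for comparison only. Among those, hypothalamus replicate 2 stood apart, with 11.1% of its counts in its 10 highest contigs against 8.56 and 8.53% in the other hypothalamus libraries. Most counts of contigs and clusters that rest on it are given with and without it, and medians in CPM only with it.

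Of 46309 contigs with a count in the study, 42878 had a count in at least 2 replicates of a tissue and were tested, and 38.8% of these differed between liver and telencephalon at an adjusted p under 0.05 (quasi-likelihood test of edgeR, p adjusted by Benjamini-Hochberg). Contigs higher in liver made up 16.6% of those tested (7131 contigs), and contigs higher in telencephalon 22.2% (9510 contigs), an order that turned round with upper quartile scaling. The fit did not pair libraries by replicate number. The differences were mostly large. Among contigs higher in liver the median fold was 5.31, with 89.4% at 2-fold or more, 33.5% at 10-fold or more and 10.4% at 100-fold or more. Among contigs higher in telencephalon the median fold was 8.72, with 92.4%, 47.2% and 13.4% at these limits. The fitted folds of contigs with no count at all in a tissue depend on the test's prior count. With these contigs set to a floor of 3 counts over the group, the medians were 5.29-fold in liver and 7.42-fold in telencephalon. The number at 1000-fold or more was then 197 in liver and 1 in telencephalon, against 236 and 90 as fitted. Intervals and floors cover counting error only.

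The test against a difference of 2-fold, which asks whether a change exceeds that size, kept 11060 contigs (25.8% of those tested), 4465 higher in liver (10.4%) and 6595 higher in telencephalon (15.4%). Taking the libraries with the same number as a pair, 7032 of the 7131 contigs higher in liver were higher in all 3 pairs, as were 9504 of the 9510 higher in telencephalon. The calls come from these same libraries, which nearly fixes this count, and of all contigs tested 64.0% had the same direction in all 3 pairs. The 3 liver values lay outside the range of the 3 telencephalon values for 16454 of the 16641 calls, and for 22521 of all contigs tested (52.5%). A further 3447 contigs had an unadjusted p under 0.05 but missed the threshold after adjustment. The calls rest on 3 libraries a tissue: without replicate 2 of both tissues 10852 contigs passed, 4456 of them higher in liver, and without replicate 3 the liver number was 4592.

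**Figure D1:**
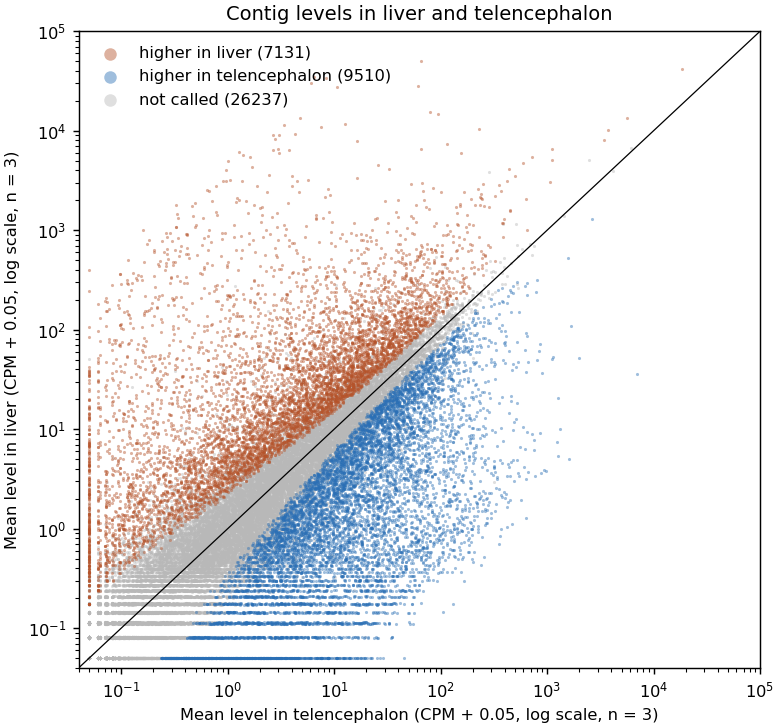
Mean level of each tested contig in liver (vertical axis) against telencephalon (horizontal axis), in CPM with 0.05 added, both axes on a log scale, n = 3 libraries each. Brown points are the 7131 contigs higher in liver, blue points the 9510 higher in telencephalon and grey points the 26237 not called, and the line marks equal levels. The highest brown point, at 50090 CPM in liver, lies at 64.8 CPM in telencephalon, and contigs at 0 in a tissue form the line along the left or lower edge.

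Levels of the contigs on either side were not alike. Contigs higher in liver had a median of 20.6 CPM in liver and 2.98 CPM in telencephalon. Those higher in telencephalon had a median of 1.01 CPM in liver and 11.7 CPM in telencephalon. As the mean over the contigs, the level in the higher tissue was 169 CPM for the liver group and 37.0 CPM for the telencephalon group, so the liver group holds a small number of very abundant contigs. Differences of log2(CPM + 0.5), liver minus telencephalon, were formed within pairs of libraries of the same number. Their median was 1.73, 1.88 and 1.77 over the contigs higher in liver. Over those higher in telencephalon it was -2.02, -2.13 and -2.10. The 3 pairs thus gave nearly the same shift, on contigs that were chosen from these same libraries.

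Among called contigs with 50 counts or more in each library of the higher tissue, the largest difference in CPM on the liver side was that of contig FHM_All_PTA_Assem.56.C1. It had 511927, 508659 and 568559 counts in the liver libraries and 1763, 1901 and 1938 in the telencephalon libraries, and the groups did not overlap. In liver it took 3.04 to 3.91% of a library's counts, and its level was 50090 ± 4326 CPM in liver and 64.8 ± 9.85 CPM in telencephalon (SD, n = 3 each). The ratio of the summed, scaled counts was 780 (95% counting interval 760 to 801), with a log2 fold change of 9.59 (SE 0.29, edgeR's quasi-likelihood test, adjusted p = 3.26e-06). It was also abundant in gut, with 177379 to 200109 counts, against 2389 to 3422 in hypothalamus.

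Among the same contigs, the largest fitted fold on the liver side was that of Singlet_10846_R, a sequence that was not joined to others in the assembly. It had 753, 1332 and 10260 counts in the liver libraries and 0 in every telencephalon library. Its level differed widely between fish, and liver replicate 3 alone held most of its counts. Against the floor of 3 counts over the telencephalon libraries it was at least 11300-fold higher in liver (edgeR's quasi-likelihood test, adjusted p = 0.00309), a value that replicate 3 sets. Without liver replicate 3 the fitted log2 fold change was 14.04, against 15.94 with it, and the highest adjusted p with any library left out was 0.0154 (edgeR). It was scarce outside liver, with 8, 0 and 22 counts in gut and 18, 2 and 4 in hypothalamus.

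On the telencephalon side the largest difference in CPM was that of contig FHM_All_PTA_Assem.1951.CB1, which shares its assembly cluster with other contigs. It had 354, 464 and 320 counts in the liver libraries and 151035, 235118 and 216659 in the telencephalon libraries. Its level was 35.7 ± 6.14 CPM in liver and 6979 ± 1804 CPM in telencephalon (SD, n = 3 each), with no overlap. The scaled counts were higher in telencephalon by a ratio of 193 (95% counting interval 182 to 204), a log2 fold change of -7.61, liver minus telencephalon (SE 0.33, edgeR's quasi-likelihood test, adjusted p = 6.46e-06). It was also abundant in the other brain region and scarce in gut, with 260 to 581 counts in gut and 266293 to 521069 in hypothalamus.

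Contig FHM_All_PTA_Assem.10424.C2 had the largest fitted fold on that side. No liver library held a count of it, and the telencephalon libraries held 1141, 1615 and 1175. It was at least 477-fold higher in telencephalon against the floor of 3 counts over the liver libraries (edgeR's quasi-likelihood test, adjusted p = 2.91e-05). Gut had 3, 2 and 6 counts and hypothalamus 868, 275 and 1158, so the lowest brain library held 275 counts and the highest library of the other tissues 6.

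**Figure D2:**
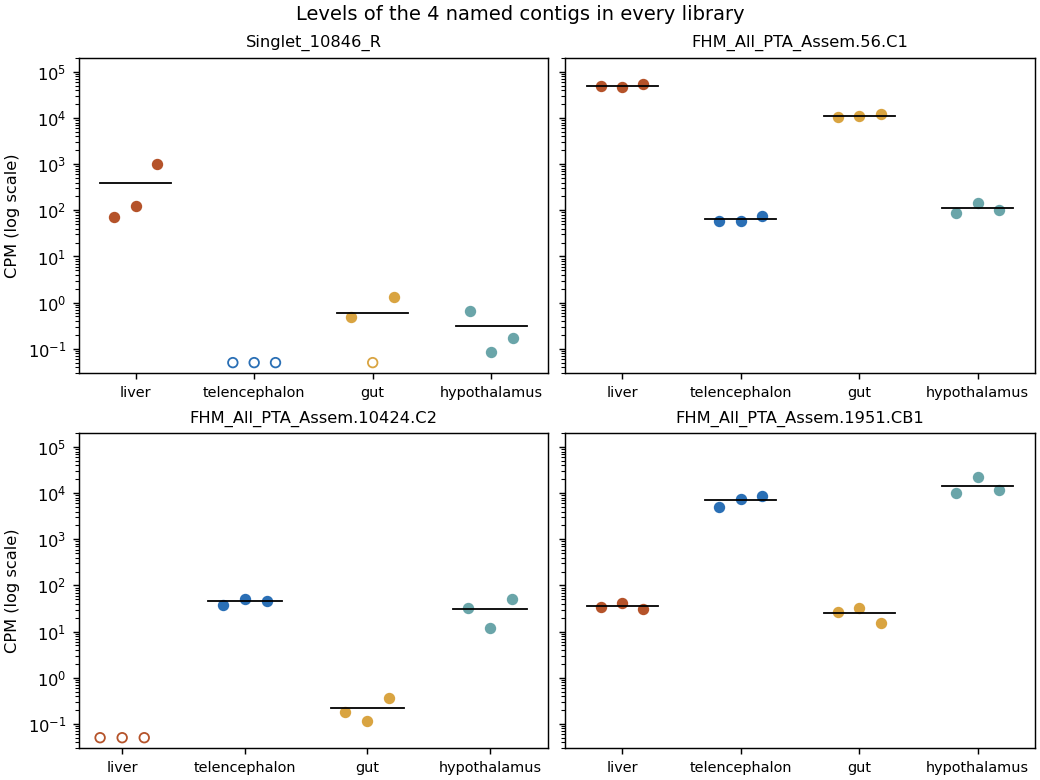
Level of the 4 named contigs in every library, in CPM on a log scale, with tissues along the horizontal axis. Points are libraries, bars are means of 3 libraries, and open circles are libraries with 0 counts, drawn at 0.05 CPM. The 3 liver points of Singlet_10846_R span 71.4 to 992 CPM, while those of FHM_All_PTA_Assem.56.C1 lie between 46747 and 54974 CPM.

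The balance of directions depends on how the libraries are scaled. The 4 named contigs kept their direction under every scaling tried. They were picked for large differences, the smallest a log2 fold change of -7.61. The shifts between scalings given below are far smaller, so this outcome was fixed in advance. With TMM scaling 42.9% of the calls were higher in liver. With upper quartile scaling 9009 contigs were higher in liver and 7982 in telencephalon, which placed 53.0% of the calls in liver. With library size alone 3585 were higher in liver and 18283 in telencephalon, or 16.4% in liver. The larger side was thus liver with upper quartile scaling and telencephalon with the others. Over the 24150 contigs that averaged 50 counts or more in liver or in telencephalon, the median log2 difference, liver minus telencephalon, was -0.33 with TMM and moved by 0.32 with upper quartile scaling and by -1.12 with library size alone. Under each of the 4 scalings tried (these and RLE, the scaling of DESeq2), 3585 contigs were higher in liver and 7982 higher in telencephalon. These make up 50.3% of the liver calls and 83.9% of the telencephalon calls, and they held 67.4% of the liver counts and 46.5% of the telencephalon counts. With library size alone, 141 contigs called higher in liver passed the test as higher in telencephalon, and 0 went the other way. Which side has more contigs is therefore set by the scaling, and statements on direction below hold with TMM.

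Most liver counts lay on contigs called higher in liver. The contigs called higher in liver held 81.7, 81.7 and 81.2% of the counts of the liver libraries, and 19.9, 18.9 and 20.3% of the telencephalon libraries. The contigs called higher in telencephalon held 4.33, 4.20 and 4.52% of the liver libraries and 50.3, 53.5 and 51.8% of the telencephalon libraries. The contigs not called made up 14.0 to 14.3% of the liver counts and 27.6 to 29.7% of the telencephalon counts. The calls were made on these libraries, so the shares are a description. Gut and hypothalamus libraries were not in the fit, though a count in them could bring a contig past the filter. There the liver contigs held 50.6, 47.5 and 48.1% of the gut counts and 22.3, 22.6 and 20.6% of the hypothalamus counts. The telencephalon contigs held 12.1, 12.4 and 11.7% of the gut counts and 46.4, 49.9 and 51.1% of the hypothalamus counts.

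**Figure D3:**
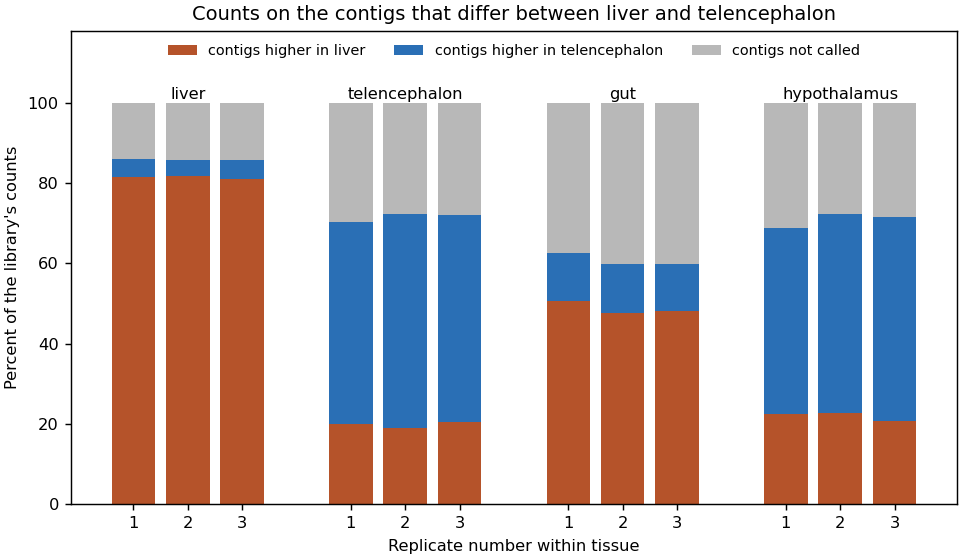
Share of each library's counts, in percent, on contigs called higher in liver (brown), higher in telencephalon (blue) or not called (grey), for each replicate of the 4 tissues. Hypothalamus bars resemble telencephalon bars, and the brown part of the gut bars, 47.5 to 50.6%, lies between that of liver and that of the brain regions.

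The number of contigs that together hold 50% of a library's counts was 136, 128 and 149 in liver, against 1617, 1496 and 1438 in telencephalon. The top 100 contigs took up 46.3 ± 0.872% of a liver library and 17.7 ± 0.847% of a telencephalon library (SD, n = 3 each). Without the highest contig of each library the 50% mark took 148 to 176 contigs in liver and 1555 to 1732 in telencephalon. The libraries of the tissues did not overlap in any of these measures. The exact permutation test gave a two-sided p = 0.1, the smallest that 3 against 3 unpaired libraries allow. This test did not pair libraries by replicate number, though a number was taken to mark a fish. Fewer contigs had a count in liver libraries, 35680, 36005 and 35656, than in telencephalon libraries, 40308, 40543 and 39987. The telencephalon libraries also held more counts. When every library was thinned to the smallest total, 35466, 35605 and 35656 contigs were expected to have a count in liver. In telencephalon 39605, 39662 and 39519 were. The mean difference was -4020 contigs, liver minus telencephalon, against -4499 unthinned. Thinning makes only the totals equal. The top contigs take more of a liver library, so fewer counts are left there for all other contigs. The remaining gap is therefore not one at equal depth for these.

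Most of the highest contigs of liver were far lower in telencephalon, and the reverse held less. All 10 of the highest contigs of liver by mean CPM were called higher in liver, with a median fold of 1190, and 1 of them was also among the 10 highest contigs of telencephalon. Of the 100 highest, 96 were higher in liver, 0 were lower and 4 were not called, and their median level in telencephalon was 0.387% of that in liver. Among the 10 highest contigs of telencephalon, 3 were higher in telencephalon, 4 were higher in liver and 3 were not called. Among its 100 highest, 71 were higher in telencephalon, 15 were higher in liver and 14 were not called, and their median level in liver was 8.74% of that in telencephalon. The top 100 lists shared 15 contigs. These ranks use levels that are not corrected for contig length, and the lists were ranked on the libraries that were tested.

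Counts could be divided by length for 4456 tested PacBio isoforms, whose names give their length (467 to 6755 bases, median 1250). The authors kept uniquely mapped reads, so reads shared with near-identical contigs are missing. These levels are therefore not fully comparable between isoforms. Per kilobase, the median isoform had 0.764 CPM in liver and 0.983 CPM in telencephalon, and the highest had 17300 CPM in liver and 7233 CPM in telencephalon. Levels over 100 CPM per kilobase were reached by 46 isoforms in liver and 28 in telencephalon, while 1999 isoforms in liver and 2216 in telencephalon were over 1 CPM per kilobase. Liver thus had more isoforms at the top of the range, and telencephalon more above the low limit.

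Calls became more frequent with depth. Of contigs with a mean under 1 count over the 6 libraries 0.47% were called, and of those with 1 to 10 counts 11.3%. Between 100 and 1000 counts 60.6% were called, between 1000 and 10000 counts 76.7%, and at 10000 counts or more 91.3% (136 of 149). A difference in a contig of few counts was often not detectable at this depth, and the 26237 contigs not called include many such contigs. The direction of the calls changed with level as well. The share of calls in liver was high at both ends of the range. After TMM scaling the effective library sizes were 10342335 to 10881019 in liver and 25446994 to 31646244 in telencephalon. With few counts, a contig lower in liver was thus harder to call than a contig lower in telencephalon. The part of this in the shares at few counts was not tested. Under 1 count all 13 calls were higher in liver, between 1 and 10 counts 57.1% of 964 calls were, and between 10 and 50 counts 44.1%. Between 50 and 100 counts 37.8% of the calls were higher in liver, between 100 and 1000 counts 40.3%, between 1000 and 10000 counts 46.0%, and at 10000 or more 78.7% (107 of 136). The 149 contigs of the highest bin held 47.4% of the liver counts and 15.3% of the telencephalon counts. Among the 12547 contigs that averaged 50 counts or more in both tissues, 52.5% were called, 4139 higher in liver and 2443 higher in telencephalon. This limit is on raw counts, and 50 counts stand for a higher CPM in liver, whose libraries were smaller. It thus leaves out more of the contigs that are low in liver. The balance of directions here can therefore not be set against that over all contigs.

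**Figure D4:**
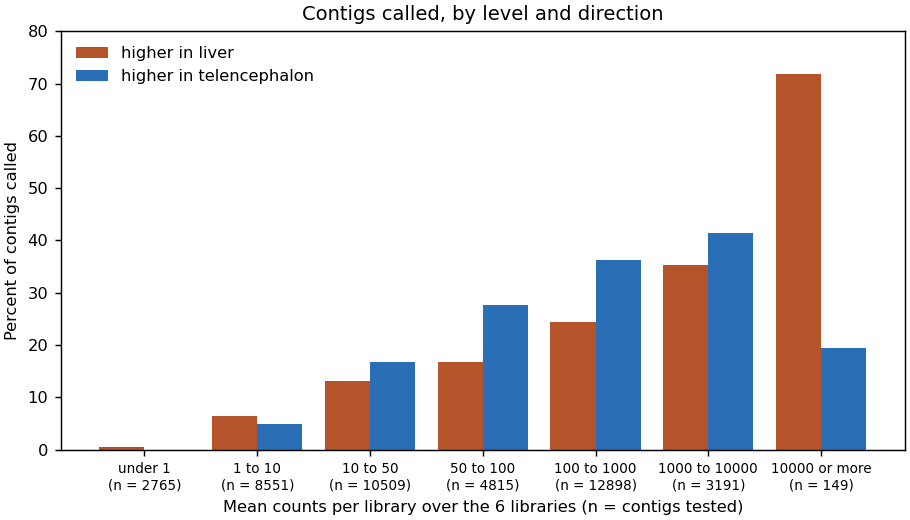
Percent of tested contigs called higher in liver (brown) or in telencephalon (blue), by mean counts per library over the 6 libraries, with the number of contigs tested under each bin. With TMM scaling, telencephalon calls are more frequent in the bins from 10 to 10000 counts, and liver calls in the bins under 10 counts (6.43% against 4.84% at 1 to 10) and in the bin of 10000 or more (71.8% against 19.5% of 149 contigs).

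Contigs present in a tissue and near absent from the other were more often those of telencephalon. When a mean of 50 counts or more was asked of a tissue and no more than 5 counts of any library of the other, 261 contigs were found in liver and 1800 in telencephalon, a selection on the same libraries as the test and so no independent count. They made up 1.06% of the liver counts and 2.78% of the telencephalon counts. These limits are on raw counts, and liver libraries were smaller. With limits of 2 CPM and 0.2 CPM in their place, 448 contigs were found in liver and 860 in telencephalon, so the gap narrowed and kept its direction. With 0 counts required in the other tissue, 64 were found in liver and 318 in telencephalon. A count of 0 in a library allows a level of up to 0.276 to 0.290 CPM in liver and 0.0948 to 0.118 CPM in telencephalon (3 counts each), so absence from liver is the less certain of the pair. Gut and hypothalamus held these contigs unequally. As background, 18745 of all 42878 contigs tested averaged 50 counts or more in gut, and 22858 did in hypothalamus. How many of all contigs had no more than 5 counts there was not counted. The limit of 5 counts is met more readily with a library left out. Of the 261 contigs of liver, 86 had no more than 5 counts in any gut library and 192 in any hypothalamus library (205 without replicate 2), and 75 averaged 50 counts or more in gut and 5 in hypothalamus (5 without replicate 2). Of the 1800 contigs of telencephalon, 728 had no more than 5 counts in any gut library and 7 in any hypothalamus library (9 without replicate 2), and 116 averaged 50 counts or more in gut and 1568 in hypothalamus (1583 without replicate 2).

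The contigs come from several sources, which their names show, and the sources differed in how often they were called and in which direction. Of 20719 contigs of the Paracel assembly 46.0% were called, 4154 higher in liver and 5375 higher in telencephalon. Of 9806 expressed sequence tags, short reads of cloned cDNA, 29.7% were called, 993 higher in liver and 1917 higher in telencephalon. Of 7563 single sequences 35.8% were called, 1319 higher in liver and 1385 higher in telencephalon. Of the PacBio isoforms 31.4% were called, 591 higher in liver and 807 higher in telencephalon. Depth differed between the sources, with a median of 135 counts per library for Paracel contigs and 15 for expressed sequence tags. Among contigs averaging 50 counts or more the called shares were closer, 60.6% of Paracel contigs, 60.4% of expressed sequence tags, 58.1% of single sequences and 51.9% of PacBio isoforms, beside 59.5% of all 21053. The direction still differed there for expressed sequence tags, with 30.1% of their calls in liver against 41.4% for all contigs. Paracel contigs had 43.8%, single sequences 42.5% and PacBio isoforms 40.2%, near the share of all contigs. The 3 small sources had more calls in liver. Of 70 contigs with SSH in the name 25 were higher in liver and 3 higher in telencephalon, of 113 with FHM_JGI_UF in the name 13 and 8, and of 151 other sequences named as contigs 36 and 15. The way each source was collected was not tested for its part in these shares.

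PacBio isoforms were called at similar rates over their length, from 30.2% of those under 1000 bases to 36.6% of those of 3000 bases or more, while their median counts ran from 23.7 to 68.1 per library. Their names also give how many full-length reads supported them. Of the calls on all PacBio isoforms, 42.3% were higher in liver. The share was 40% for the 3806 isoforms with 1 such read (473 of 1183 calls). It was 52.3% at 2 reads (57 of 109), 51.4% at 3 to under 6 reads (36 of 70) and 69.4% for the 90 isoforms with 6 or more (25 of 36). The last share rests on few calls. Depth was not matched, with median counts of 31.8 at 1 read and 50.7 at 6 or more. The long reads came from pooled RNA of several tissues of a male fish, brain and liver among them. The part of this pool in these shares was not tested.

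Where 2 or more contigs that the assembler placed in a common cluster were called, they mostly went the same way. Of 3676 Paracel clusters with at least 2 tested contigs, 956 had at least 2 calls. All calls were higher in liver in 420 of these, all were higher in telencephalon in 428, and 108 clusters (11.3%) held calls in both directions. The share to be met among unrelated contigs was not computed. Those 108 clusters had 135 contigs higher in liver and 138 higher in telencephalon, and in 7 of them both directions exceeded 10-fold. In each, the most counted contig of either direction was taken and the log2 ratio of the liver contig to the telencephalon contig was formed within each library. Its median over clusters was 3.61 in liver and -1.01 in telencephalon, which the choice of contigs sets. In gut and hypothalamus, which the choice of contigs did not use, the mean ratio was higher in gut in 100 of the 108 clusters (99 without hypothalamus replicate 2). The ratios of gut and hypothalamus libraries did not overlap, in either direction, in 86 of these clusters (79.6%), 82 of them with every gut library higher. Over all 3676 clusters, the ratio of the pair of most counted contigs did not overlap in 25.7%. Without hypothalamus replicate 2 these shares were 89.8 and 35.9%, with every gut library higher in 93 clusters. Over the 848 clusters whose calls all went the same way, the ratio of the pair of most counted called contigs did not overlap in 30.2%, or 40.7% without that library. Fewer libraries fail to overlap more readily, so the shares with and without that library cannot be set against each other. The largest of the 108 clusters with calls in both directions had 19 tested contigs, 7 higher in liver, 3 higher in telencephalon and 9 not called. Its 7 liver contigs had 39757, 33376 and 40146 counts in liver and 834, 585 and 503 in telencephalon. Its 3 telencephalon contigs had 0, 1 and 0 counts in liver and 157, 102 and 128 in telencephalon. The ratio within a library was formed with 0.5 added to each count. It does not depend on scaling, but near 0 counts it depends on depth. In 67 of the 108 clusters both picked contigs averaged 50 counts or more. The authors kept uniquely mapped reads, so reads shared by near-identical contigs were not counted, and the split of counts within a cluster is uncertain. Whether members of a cluster are forms of a gene or copies of it was not tested.

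The same contigs also separated gut from hypothalamus, tissues whose libraries were not in the fit, though they come from the same fish and entered the filter. With a filter over liver and telencephalon alone, 16846 contigs were called, 16638 of them among the 16641. Gut, like liver, is a digestive organ and hypothalamus a part of the forebrain. Of all contigs tested, 30.5% differed between gut and hypothalamus, 12.5% higher in gut and 17.9% higher in hypothalamus (edgeR's quasi-likelihood test, adjusted p under 0.05). Of the 7131 contigs higher in liver, 2891 (40.5%) were higher in gut and 271 (3.80%) higher in hypothalamus, with a median log2 difference, gut minus hypothalamus, of 1.09. Of the 9510 contigs higher in telencephalon, 279 (2.93%) were higher in gut and 5948 (62.5%) higher in hypothalamus, with a median of -2.23. Contigs not called between liver and telencephalon were higher in gut in 8.37% and in hypothalamus in 5.62%, with a median of 0.00. Many of them had few counts, and depth was not matched between the called contigs and these. Most contigs called in both comparisons thus had liver with gut or telencephalon with hypothalamus. Without hypothalamus replicate 2, 3223 of the liver contigs (45.2%) were higher in gut and 241 in hypothalamus, with a median of 1.22. Of the telencephalon contigs, 316 were then higher in gut and 5859 (61.6%) in hypothalamus, with a median of -2.14. Of the contigs not called between liver and telencephalon, 9.33% were then higher in gut and 5.34% in hypothalamus, with a median of 0.08. Of all contigs tested, 14.0% were then higher in gut and 17.5% in hypothalamus. With replicate 3 left out of every tissue, 1434 of the 4592 contigs higher in liver were higher in gut. Of the 6569 higher in telencephalon, 3429 were higher in hypothalamus. With library size alone in both comparisons these numbers were 1533 of 3585 and 9075 of 18283. The sets thus change with the setting, and shares over all contigs were not computed for these last 2 settings.

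**Figure D5:**
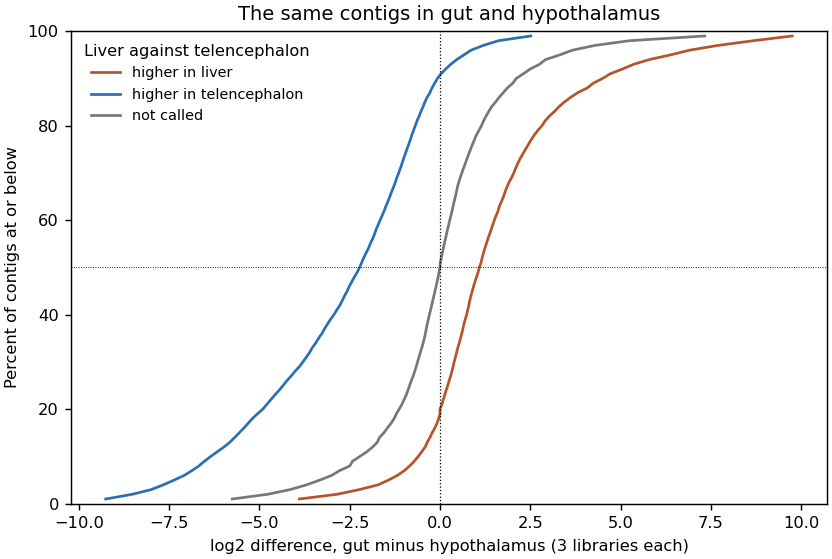
Cumulative percent of contigs (vertical axis) by their log2 difference between gut and hypothalamus, gut minus hypothalamus (horizontal axis, 3 libraries each), for contigs higher in liver (brown), higher in telencephalon (blue) and not called (grey). The curves cross 50% at 1.09 for contigs higher in liver, -2.23 for contigs higher in telencephalon and 0.00 for those not called.

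On the telencephalon side, large differences carried over more often than small ones. Carrying over means passing the test in gut against hypothalamus, which a larger difference passes more readily. Depth was not matched between the groups of folds. Of all contigs tested, 17.9% were higher in hypothalamus and 12.5% in gut. Of contigs less than 2-fold higher in telencephalon, 29.3% were higher in hypothalamus than in gut, and of those at least 100-fold higher, 86.1% were (26.5 and 85.0% without hypothalamus replicate 2). On the liver side the share higher in gut was 22.6% under 2-fold, 40% at 2-fold to 10-fold, 48.0% at 10-fold to 100-fold and 45.2% at 100-fold or more. Without hypothalamus replicate 2 these were 36.8, 46.1, 47.9 and 42.9%, so the first of these shares depends on that library. Opposite pairs were few. The 271 contigs higher in liver and in hypothalamus had medians of 63.8 CPM in liver and 12.8 CPM in telencephalon, and of 3.07 CPM in gut and 20.1 CPM in hypothalamus. The 279 contigs higher in telencephalon and in gut had medians of 1.71 CPM in liver and 8.43 CPM in telencephalon, and of 49.5 CPM in gut and 10.2 CPM in hypothalamus. The difference was at least 10-fold in both comparisons for 24 and 20 of these contigs (23 and 20 without hypothalamus replicate 2). CPM were scaled within each pair of tissues, so levels of a contig in liver and in gut are on separate scales and were not compared.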

How the data were processed

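RNA from 12 libraries, 3 each of liver, telencephalon, gut and hypothalamus, was grouped by the sample titles. The deposited values are whole-number counts of reads per contig, not normalized, and contigs without a count were set to 0. According to the methods, the authors trimmed adaptors and low-quality bases with Cutadapt, aligned the reads with bowtie 2 and used SAMtools and in-house scripts to discard likely PCR duplicates and keep uniquely mapped reads. As mapping target the methods give the consensus transcriptome in a sentence and zebrafish sequences in the next, while contigs are named after fathead minnow assemblies. The submitters' processing notes list cutadapt, SAMtools, DESeq and edgeR, with versions not given in the sources used here.

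Tests used R 4.3.3 and edgeR 4.0.16 with TMM scaling, the quasi-likelihood test and Benjamini-Hochberg adjustment at 0.05 over the 42878 contigs with a count in 2 or more replicates of any tissue. Each pair of tissues was fitted alone. The gene table (assembly fPimPro1.hap1.1, 64593 genes) matched 0 of 11230 identifiers. The marker lists set for named genes were therefore not used, and no contig sequences were used here. Named contigs have, in each direction, the largest fitted fold or the largest difference in mean CPM among called contigs that have 50 counts or more in each library of the tissue where they are higher and whose 3 pairs of libraries all differ the same way. The comparison, the lists and the rules were chosen with earlier results of these data known. A set of 3 counts corresponds to 0.0948 to 0.290 CPM in the 6 libraries.

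The labels number the replicates 1 to 3, and the methods describe 3 fish. Deviations of libraries from their tissue means correlated between liver and telencephalon at r = 0.546, 0.495 and 0.451 for the same number (12547 contigs). Otherwise r was -0.372 to -0.0152. Deviations from a mean of 3 libraries sum to 0, so these negative values are not separate support. On the positive values, a number was taken to mark a fish. Handling shared by libraries of a number was not tested. The chi-square statistic between replicates was 15.9 to 92.7 per degree of freedom, so each library was counted as a separate sample. The alternatives were edgeR's exact test, DESeq2 1.42.0, a fit of all libraries, other scalings and filters, a replicate block, a test against 2-fold, summed clusters and libraries left out. The test code was run on simulated data in which few contigs changed, unlike here, so nothing on the calls is drawn from it.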

Additional observations from a re-analysis of the deposited data

How the results depend on the processing

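The number of contigs that differ (16641) stayed within 1.5 times under every alternative except the test against a 2-fold difference (11060, with 4465 higher in liver and 40.4% of calls in liver) and the fit without replicate 2 in both tissues. It was 18487 with DESeq2, which gave no adjusted p for 4775 contigs, and 17473 with edgeR's exact test. In the paired fit (replicate block) it was 17734, and 15924 of the 16641 calls were kept in the same direction. The block changed no call on a named contig. With 1 library left out it was 12807 to 16044 (5324 to 6856 higher in liver, 7483 to 9188 in telencephalon, 41.6 to 42.7% in liver), and with a replicate number left out of both tissues 10852 to 14932 (4456 to 6345, 6396 to 8587, 41.1 to 42.5%). Where 2 libraries remained in a tissue, the spread was pooled over both.

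The share of calls higher in liver (42.9%) was 45.3% with DESeq2, 39.5% with a fit of all 12 libraries, 44.7% with RLE scaling, 53.0% with upper quartile scaling, 16.4% with library size alone (3585 and 18283 contigs), 44.7% with edgeR's expression filter and 45.3% with a filter of 50 counts in 3 or more libraries. Contigs near absent from the other tissue numbered 448 in liver and 860 in telencephalon with limits in CPM, 64 and 318 with 0 counts required, and 290 to 300 and 2069 to 2180 with a replicate number left out. In gut against hypothalamus, library size alone gave 1533 contigs higher in liver and in gut, of 3585 higher in liver. Of 18283 higher in telencephalon, 9075 were higher in hypothalamus and 515 in gut. With a replicate number left out these were 1434 to 2071, 3429 to 4486 and 96 to 138, with 86 to 175 higher in liver and in hypothalamus and 2284 to 3682 of the contigs not called. The sets then held 4456 to 6345 contigs higher in liver and 6396 to 8587 higher in telencephalon. Shares over all contigs were not computed there or for library size alone. Whether agreement or only the number of calls moved can therefore not be told. Without hypothalamus replicate 2 the numbers were 3223, 5859, 316, 241 and 3848. The sets stayed at 7131 contigs higher in liver, 9510 higher in telencephalon and 26237 not called. Over all contigs tested, 14.0% were higher in gut and 17.5% in hypothalamus without that library. The difference in contigs with a count, liver minus telencephalon, was -4020 after thinning, which makes only the totals equal. Thinning, the scalings at 50 counts or more and the values without hypothalamus replicate 2 were chosen after seeing the data. The cause of these shifts was not tested. No direction of a named contig changed under any alternative run, which their choice for large differences nearly fixed. Contigs with few counts were seldom called, and depth limits statements on them.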
